A study of Mus musculus with 10 samples.

Results

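Gene starts with Brg1 and H3K9me3 in wildtype cells, and with no H3K9me3 summit called after the loss of Arid1a, were examined in AB17 cells. The summits came from chromatin immunoprecipitation followed by sequencing (ChIP-seq). The starts were taken from those of 20807 autosomal protein-coding genes. A start was a member where an H3K9me3 summit and a Brg1 summit of the wildtype cells lay within 2 kb of it and no H3K9me3 summit of the knockout cells did. A summit is the position of the highest signal within a peak. This rule gave 4259 members, which is 20.5% of the starts. The members were thus chosen by the H3K9me3 lists of both genotypes and the Brg1 list, and the values of these 3 lists are described below without support being drawn from them.

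AB17 cells are immortalized hepatocytes of a C57BL/6 mouse whose Arid1a alleles are flanked by loxP sites (Arid1a fl/fl), and they carry SV40 large T antigen and an activated H-Ras. The wildtype (WT) cells were infected with Ad-GFP, an adenovirus for a fluorescent protein, and the knockout (KO, Arid1a-/-) cells with Ad-Cre, an adenovirus for the Cre recombinase. The lists used here are of H3K9me3, H3K27me3, Arid1a, Brg1, Ctcf and Rad21 for WT cells and of H3K9me3 and H3K27me3 for KO cells, and 1 input belonged to each genotype. Both genotypes carry the viral oncogene and the Ras transgene, all cells derive from 1 line, and each antibody and genotype is 1 library, so that no test between conditions was possible and the effect of the line, of the virus and of Cre cannot be told apart.

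Brg1, encoded by Smarca4, is an ATPase of the SWI/SNF complex, which slides and evicts nucleosomes, and Arid1a is a DNA-binding subunit of one form of this complex. Ctcf binds DNA through its zinc fingers and halts cohesin, of which Rad21 is a subunit, at the bases of chromatin loops. H3K9me3 marks constitutive heterochromatin, repeats and silenced zinc finger genes, and H3K27me3 is the mark of Polycomb repression at developmental genes. Starts of active mammalian genes lie mostly in CpG islands, which are rich in unmethylated CpG and are a usual place of Brg1.

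The stretches just upstream of the starts are shown for 3 members, 1 with high Brg1 and 2 with high H3K27me3. They are the 250 bases before the start (GRCm38, written 5′ to 3′ on the strand of the gene), with each CpG in capitals, and none of them overlaps an annotated exon. Eapp was among the 10 members with the highest Brg1, and Mafa and Ybx2 had the highest H3K27me3.
Eapp, chr12:54695898-54696147, minus strand: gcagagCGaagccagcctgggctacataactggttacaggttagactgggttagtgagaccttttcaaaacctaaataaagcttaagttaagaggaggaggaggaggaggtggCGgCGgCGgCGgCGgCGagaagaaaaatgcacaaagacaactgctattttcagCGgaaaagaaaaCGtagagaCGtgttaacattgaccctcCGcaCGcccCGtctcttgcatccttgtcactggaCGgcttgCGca
Mafa, chr15:75748229-75748478, minus strand: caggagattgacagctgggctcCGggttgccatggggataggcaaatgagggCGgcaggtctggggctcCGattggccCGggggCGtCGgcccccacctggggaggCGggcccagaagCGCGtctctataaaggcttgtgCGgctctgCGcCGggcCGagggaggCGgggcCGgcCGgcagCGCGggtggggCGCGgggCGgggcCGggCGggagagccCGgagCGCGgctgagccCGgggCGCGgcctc
Ybx2, chr11:69935546-69935795, plus strand: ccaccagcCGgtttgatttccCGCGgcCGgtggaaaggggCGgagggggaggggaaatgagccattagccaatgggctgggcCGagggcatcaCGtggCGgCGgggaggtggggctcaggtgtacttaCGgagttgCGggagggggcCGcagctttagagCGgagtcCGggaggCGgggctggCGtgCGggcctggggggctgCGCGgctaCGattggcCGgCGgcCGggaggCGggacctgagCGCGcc
The stretch of Eapp held 15 CpG, against 29 for Mafa and 26 for Ybx2. The Mafa stretch held a TATA box (TATAAA), and the stretches of Mafa and Ybx2 held a CCAAT box.

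The values that chose the members were mostly low. A summit is given here by its −log10 q, the significance that the authors' peak caller assigned to it within 1 library, and a value can be compared only within its own list. The highest WT H3K9me3 summit at a member start had a median −log10 q of 2.71 (quartiles 2.28 and 3.39, highest 8.53), and 128 of the 4259 members, 3.01%, reached 5. Brg1 at the members had a median of 3.37 (quartiles 2.56 and 4.49, highest 25.8), and 779 members, 18.3%, reached 5. A single WT H3K9me3 summit lay at 2935 members, and a single Brg1 summit at 2309. With WT H3K9me3 and Brg1 of at least 3 there were 1269 members, and where no KO H3K9me3 was allowed within 10 kb there were 2293. At the limit of 2 kb the choice turned on a few bases. Pnkd, Gcn1l1 and Gdf1 had their nearest WT H3K9me3 summit 1998, 1999 and 2000 bp away and were members, whereas Slc44a1, Gm49320 and Mrpl53, at 2002, 2003 and 2005 bp, were not. Egr3, Clp1 and Cilp2 had Brg1 at 1995, 1996 and 1999 bp and were inside, and Cnnm3, C9orf72 and Tmem151b at 2003, 2006 and 2006 bp were outside. Of the KO H3K9me3 list, the nearest summits at Rbm22, Cpped1 and Gm45871 lay 2004, 2005 and 2007 bp away, so that these were members, while Zfp937, Alyref2 and Ror1, at 1992, 1999 and 2000 bp, were not.

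The members were set beside 3 groups of starts that share part of the rule. These were 3078 starts with Brg1 and no H3K9me3 in either genotype, 2577 with WT-only H3K9me3 and no Brg1, and 838 with Brg1 and H3K9me3 in both genotypes. Over all starts, 41.4% had Brg1 and 32.9% had WT H3K9me3 without KO H3K9me3. WT H3K9me3 lay at 40.5% of all starts and KO H3K9me3 at 14.5%, although the lists held 141657 and 131430 autosomal summits. Shares are given with 95% Wilson intervals and their differences with 95% intervals of a difference of proportions, all of which cover counting error only. Starts are not replicates, and 1042 members shared a WT H3K9me3 summit with another member because their starts lay close together, so that the intervals are too narrow. Read depth is unknown from the lists.

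Most members held the other factors of the WT cells as well. Arid1a lay within 2 kb of 73.2% of the members (71.8 to 74.5), against 37.0% of all starts. The share was 59.0% at Brg1 starts without H3K9me3, 28.1% at WT-only H3K9me3 starts without Brg1 and 70.8% at Brg1 starts with H3K9me3 in both genotypes. The members thus exceeded the Brg1 starts without H3K9me3 by 14.1 percentage points (11.9 to 16.3), whereas the difference from Brg1 starts with H3K9me3 in both genotypes was 2.40 points with an interval of −0.956 to 5.75. In the Arid1a list itself, the median −log10 q was 3.33 at the members with a summit and 3.23 over all starts with one, and the highest at a member was 22.8.

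Rad21 was the most frequent of the other factors. It lay at 85.1% of the members (84.0 to 86.1), against 52.4% of all starts, 70.1% of the Brg1 starts without H3K9me3, 57.5% of the WT-only H3K9me3 starts without Brg1 and 82.9% of the Brg1 starts with H3K9me3 in both genotypes. The difference from the Brg1 starts without H3K9me3 was 14.99 points (13.05 to 16.9), and that from the Brg1 starts with H3K9me3 in both genotypes was 2.13 points with an interval of −0.632 to 4.89. Ctcf lay at 70.7% of the members (69.4 to 72.1), against 44.0% of all starts, 58.3% of the Brg1 starts without H3K9me3, 47.4% of the WT-only H3K9me3 starts without Brg1 and 66.7% of the Brg1 starts with H3K9me3 in both genotypes. The difference was 12.4 points (10.2 to 14.6) from the Brg1 starts without H3K9me3 and 4.04 points (0.567 to 7.51) from those with H3K9me3 in both genotypes. The level of the Ctcf summits at members was near that over all starts with Ctcf, with a median −log10 q of 6.97 against 6.80 and with 41.3% against 41.2% at 10 or more. For Rad21 the medians were 4.72 and 4.39, and 19.2% and 18.1% were at 10 or more.

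**Figure D1:**
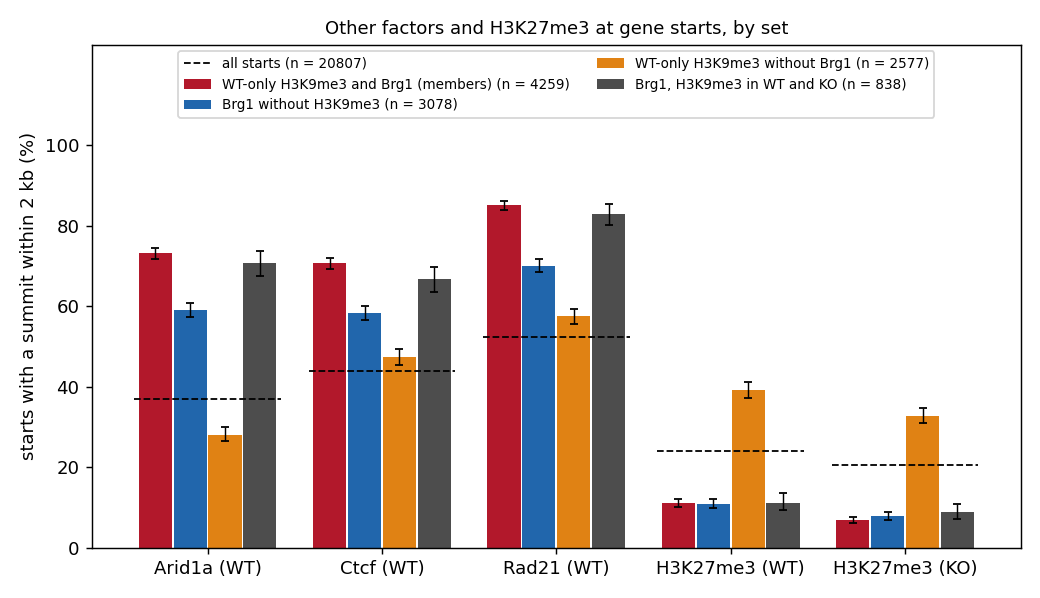
Share of starts (%, y axis) with a summit of each list within 2 kb, for the members and 3 like groups of starts, with bars of the 95% Wilson interval and dashed lines for all 20807 starts. The members stand at 73.2% for Arid1a, 70.7% for Ctcf and 85.1% for Rad21, above the Brg1 starts without H3K9me3 in each, and at 11.1% for WT H3K27me3, below the dashed line.

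The members differed from the Brg1 starts without H3K9me3 also in Brg1 level and CpG content, 2 measures that move with the other factors. Median Brg1 was 3.37 at the members and 3.16 at the Brg1 starts without H3K9me3. Among members, the Arid1a share was 57.5% where Brg1 was under 2.5 and 89.0% where it was 5 or more, and the Rad21 share was 81.8% and 89.9%. When both groups were divided into 4 classes of Brg1 −log10 q and 2 classes of CpG content, the members had the larger share in 8 of 8 classes for Arid1a, for Ctcf and for Rad21. The differences ran from 4.03 to 18.4 points for Arid1a, from 4.68 to 19.6 for Ctcf and from 7.18 to 30.1 for Rad21. These classes rest on Brg1, a list of the rule, and no interval was computed for them, so that they only describe the starts. The class of lower CpG content with Brg1 of 5 or more held 155 members and 89 other starts. Its differences were 4.24 points for Arid1a, 4.68 for Ctcf and 18.9 for Rad21. At starts with Brg1 of 5 or more, the Arid1a shares were 89.0% (86.6 to 91.0) and 84.6% (80.7 to 87.8), and these intervals overlapped.

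Most members held at least 1 of the 3 factors, as did most of the other Brg1 starts. Arid1a, Ctcf and Rad21 were all found at 2094 members, 49.2% (47.7 to 50.7), against 21.6% of all starts, 32.6% of the Brg1 starts without H3K9me3 and 45.6% of the Brg1 starts with H3K9me3 in both genotypes. The difference from the last of these was 3.58 points with an interval of −0.109 to 7.27. Arid1a and Rad21 without Ctcf occurred at 645 members, and Ctcf and Rad21 without Arid1a at 632. None of the 3 was found at 175 members, 4.11%, against 35.6% of all starts, 12.2% of the Brg1 starts without H3K9me3 and 4.53% of those with H3K9me3 in both genotypes. The members with all 3 factors and those with none differed in most other measures. Median Brg1 was 3.80 and 2.56, the CpG island-like share was 80.8% and 41.1%, and the share with WT H3K27me3 was 8.93% and 25.7%. Chromosomes 13 and 14 held 5 of the members with all 3 factors and 18 of those with none.

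The summits were gathered just downstream of the starts. Brg1 reached its highest density, 225.4 summits per 1000 member starts in 250 bp, between the start and 250 bp downstream, 9.90 times its mean at 5 to 10 kb. Arid1a and Rad21 were highest in the same 250 bp, with 188.1 and 178.0 summits per 1000 starts. Ctcf was highest in the 250 bp upstream of the start, with 114.8. WT H3K9me3 was highest from 250 to 500 bp downstream, with 146.7, which was 4.95 times its level at 5 to 10 kb. At the Brg1 starts without H3K9me3, Brg1 was highest in the same 250 bp as at the members, at 9.98 times its mean at 5 to 10 kb. At the WT-only H3K9me3 starts without Brg1, WT H3K9me3 was also highest from 250 to 500 bp, at 4.82 times. The nearest WT H3K9me3 summit lay a median of 495.0 bp from the start and the nearest Brg1 summit 357.0 bp, and since the rule asked for both within 2 kb, some gathering was given by the choice.

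**Figure D2:**
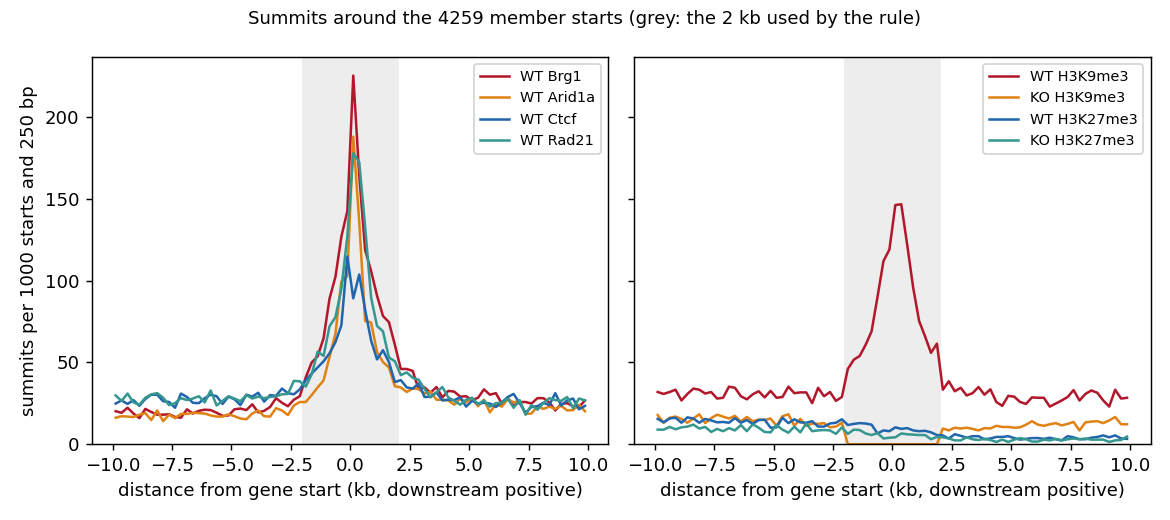
Summits per 1000 member starts and 250 bp (y axis) against the distance from the start in kb (x axis), with the 4 factors on the left and both histone marks in both genotypes on the right; grey marks the 2 kb that the rule used. Brg1, Arid1a and Rad21 are highest within 250 bp downstream, KO H3K9me3 is absent within 2 kb by the rule, and H3K27me3 has no maximum at the start.

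The spacing of the summits was measured at each member start. The rule placed a WT H3K9me3 and a Brg1 summit within 2 kb of the same start, so that their nearness was given by the choice. The nearest pair of WT H3K9me3 and Brg1 summits at a member start was a median of 359.0 bp apart, and 15.9% of the members had a pair within 100 bp. For Brg1 and Arid1a the median was 249.5 bp with 22.7% within 100 bp, and for Ctcf and Rad21 it was 138.0 bp with 42.4%. The Brg1 starts without H3K9me3 were near these values, with medians of 272.0 bp for Brg1 and Arid1a and 133.0 bp for Ctcf and Rad21. The members had the closest spacing between Ctcf and Rad21 among the 9 pairs of lists measured. Summits of a broad mark called as narrow peaks are loosely placed, which limits the spacings that involve H3K9me3.

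H3K9me3 of the WT cells was not confined to the starts. Between 2 and 10 kb from the start, 78.4% of the members had a further WT H3K9me3 summit and 46.2% a KO H3K9me3 summit, against 66.8% and 43.3% of the Brg1 starts without H3K9me3. The nearest KO H3K9me3 summit lay a median of 10953.0 bp away, between 2 and 5 kb at 923 members and beyond 50 kb at 207. The absence of KO H3K9me3 in the members is therefore an absence of called summits within 2 kb and not from the surroundings of the gene. A KO signal under the limit of peak calling would also leave no summit, and this was not tested.

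H3K27me3 was scarce at the members. A WT H3K27me3 summit lay at 474 members, 11.1% (10.2 to 12.1, or 4.98% with −log10 q of at least 3 in every list and 19.9% with windows of 5 kb), against 24.1% of all starts, 10.9% of the Brg1 starts without H3K9me3 and 39.2% of the WT-only H3K9me3 starts without Brg1. The difference from the Brg1 starts without H3K9me3 was 0.181 points with an interval of −1.27 to 1.63, and that from the WT-only H3K9me3 starts without Brg1 was −28.0 points (−30.1 to −25.9). In KO cells, 288 members had an H3K27me3 summit, 6.76%, against 20.6% of all starts. H3K27me3 was found in WT cells alone at 5.59% of the members and in KO cells alone at 1.22%, against 6.26% and 2.69% of all starts.

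Of the 474 members with WT H3K27me3, 236 had it also in KO cells, 49.8% (45.3 to 54.3), compared with 56.7% (51.3 to 61.9) of such Brg1 starts without H3K9me3, 75.4% of such WT-only H3K9me3 starts without Brg1 and 74.0% over all starts. The strength of the WT summit moved with this share. Members with a WT H3K27me3 −log10 q under 3 had a KO summit in 42 of 220 cases, 19.1% (14.4 to 24.8), and those with 10 or more in 59 of 62. Over all starts the shares were 42.4% and 94.8%. The KO H3K27me3 list was also shorter, with 85640 autosomal summits against 108777 in WT, and the part of strength and list size in the difference was not tested. The 3 members with WT H3K27me3 of 10 or more and none in KO were Fam78a, Vstm2l and Chst1, named after their values were seen. Fam78a had a WT H3K27me3 −log10 q of 32.4, and its nearest KO summit lay 2695 bp downstream, just past the limit. For Vstm2l (19.01) it lay at −2355 bp, where a negative distance is upstream of the start, and for Chst1 (11.2) 2936 bp downstream.

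The members with the highest WT H3K27me3 included genes with tissue-restricted roles. Mafa, a transcription factor of pancreatic beta cells, had 56.0 in WT and 26.7 in KO cells, with Ctcf at 66.2 and Rad21 at 12.7. Ybx2, a germ cell RNA-binding protein, had H3K27me3 at 40.7 in WT and 30.4 in KO, with Ctcf at 52.1 and Rad21 at 49.8. Mtus2 had 29.0 and 15.5, and Bahd1, a heterochromatin protein, 29.0 and 27.3. Arid1a was found at Fam78a and Bahd1 and not at Mafa, Ybx2 and Mtus2. The Brg1 summits of Mafa and Ybx2 lay at −1632 and −1535 bp, whereas their H3K9me3 summits lay at −87 and 167 bp.

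CpG content was high at the members, as at the Brg1 starts with H3K9me3 in both genotypes. A start was called CpG island-like where the stretch from 500 bp before to 500 bp after it had an observed/expected CpG ratio of at least 0.6 and a GC content of at least 50%. This held for 3168 members, 74.4% (73.1 to 75.7), against 45.7% of all starts, 66.6% of the Brg1 starts without H3K9me3, 44.4% of the WT-only H3K9me3 starts without Brg1 and 73.4% of the Brg1 starts with H3K9me3 in both genotypes. The difference from the Brg1 starts without H3K9me3 was 7.81 points (5.69 to 9.93), and that from those with H3K9me3 in both genotypes was 0.995 points with an interval of −2.27 to 4.26. The median ratio was 0.748 at the members and 0.717 at the Brg1 starts without H3K9me3, and the median GC content was 59.5% and 57.8%. Members made up 1.73% of the starts in the lowest decile of the CpG ratio and 37.3% in the highest, and Brg1 6.63% and 72.4%. KO H3K9me3 lay at 9.47% and 14.5% of the starts in the same deciles.

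**Figure D3:**
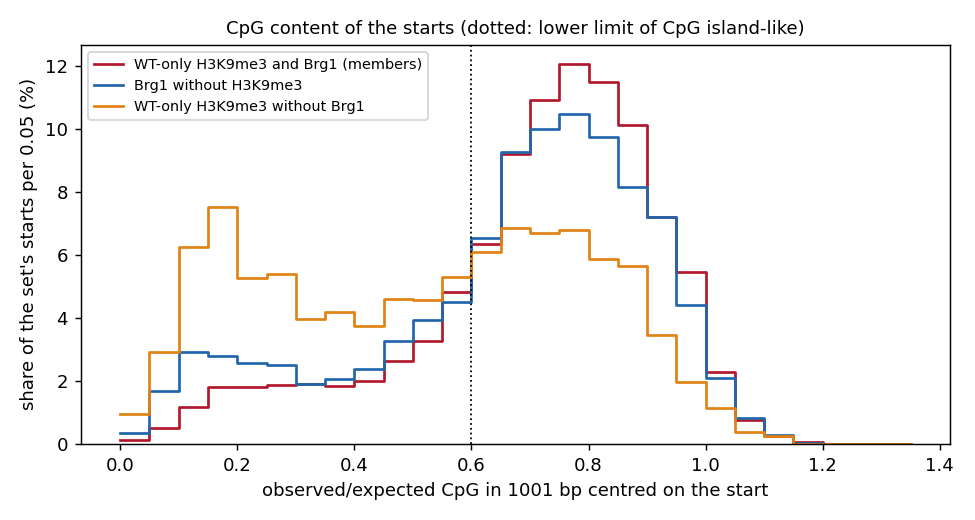
Distribution of the observed/expected CpG ratio (x axis, 500 bp on each side of the start) as the share of each group's starts per 0.05 (%, y axis), for the members, the Brg1 starts without H3K9me3 and the WT-only H3K9me3 starts without Brg1. The members have a single main maximum between 0.75 and 0.8, whereas the WT-only H3K9me3 starts without Brg1 have a further one between 0.15 and 0.2.

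The larger share of the factors at the members was present within both CpG classes. At CpG island-like starts, Arid1a lay at 77.8% of the members (76.4 to 79.3) and 67.0% of the Brg1 starts without H3K9me3 (64.9 to 69.0). At other starts the shares were 59.6% (56.6 to 62.5) and 43.2% (40.3 to 46.3). Rad21 lay at 87.8% and 78.5% of the CpG island-like starts and at 77.1% and 53.4% of the others. WT H3K27me3 lay at 10.1% and 9.66% of the CpG island-like starts, with overlapping intervals.

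Short promoter words were counted on both strands in the 300 bp from 250 bp before to 49 bp after the start, and none of the 9 words contains another, though GGGCGG and GATGGCGG end in the same bases. The GC box GGGCGG, a site of Sp1, occurred at 63.0% of the members and 43.7% of all promoters, but at 71.9% and 71.8% of the CpG island-like ones. The ETS word CCGGAAG occurred at 18.3% against 11.03%, and at 21.1% against 18.7% of the CpG island-like promoters. The YY1 word GATGGCGG occurred at 3.69% against 2.07%, the NRF1 word GCATGCGC at 5.56% against 3.45%, the E-box CACGTG at 10.4% against 7.82% and the CRE word TGACGTCA at 3.71% against 2.43%. The TATA box TATAAA was less common, at 7.35% of the members and 12.7% of all promoters, with 5.52% and 5.81% of the CpG island-like ones. The AP-1 word TGAGTCA occurred at 3.24% against 4.52%, and CCAAT at 37.2% against 38.6%. Each of the 9 gaps was smaller among the CpG island-like promoters than among all. At promoters that were not CpG island-like, the GC box occurred at 37.4% of the members and 20.1% of all. There the ETS word occurred at 10.1% and 4.55%, and the CRE word at 1.19% of both. Brg1 starts without H3K9me3 had the GC box at 57.4%, the ETS word at 17.1% and the NRF1 word at 5.36%. They had the CRE word at 3.93%, the YY1 word at 2.57% and TATAAA at 9.62%. A match is only a match of letters.

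Divergent gene pairs were about as common among the members as among other Brg1 starts. Another protein-coding gene started within 1000 bp upstream on the other strand at 526 members, 12.4% (11.4 to 13.4), compared with 6.97% of all starts, 11.3% of the Brg1 starts without H3K9me3 and 12.1% of those with H3K9me3 in both genotypes. The difference from the Brg1 starts without H3K9me3 was 1.04 points with an interval of −0.448 to 2.54. Such a pair is Mrps18b, a mitochondrial ribosomal protein, and Ppp1r10, a phosphatase regulator, whose starts on chromosome 17 lie at 35916389 and 35916434 and shared a Brg1 summit of 19.4. Exd1 and Chp1, on chromosome 2 at 119547627 and 119547697, shared a Ctcf summit of 207.7 in the same way.

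The functions of the members were described with 35 gene lists, and the share of members in each was read against the 20.5% over all starts. No test of a list was made. Beside the members the starts with Brg1 are given for each list described, because the rule took only Brg1 starts and 49.4% of all Brg1 starts were members. The largest shares were found for AP-1 and immediate early genes and for p53 targets with cell cycle brakes. Each of these lists had 13 members of 20 genes (65.0%, interval 43.3 to 81.9). Ras-MAPK feedback genes followed with 17 of 31 (54.8%) and spliceosome genes with 31 of 59 (52.5%). Among the Brg1 starts of these 4 lists, 68.4%, 76.5%, 60.7% and 68.9% were members. Olfactory and vomeronasal receptors, which are silent outside sensory neurons, had 7 members of 1454 genes (0.481%), and Brg1 lay at 3.44% of their starts.

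**Figure D4:**
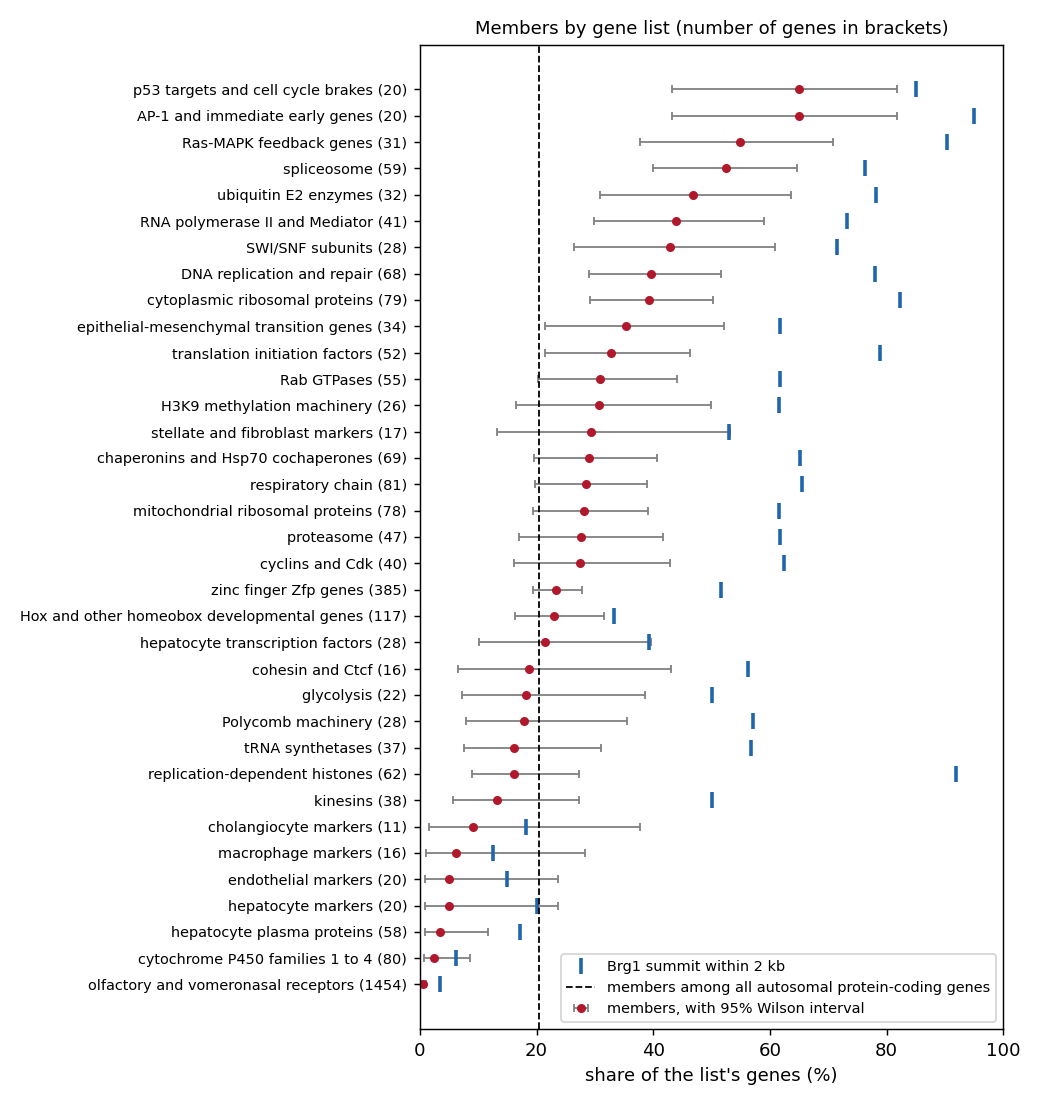
Share of each gene list (%, x axis) that were members, as points with 95% Wilson intervals, and the share of the list with Brg1 within 2 kb, as blue ticks; the dashed line is the 20.5% of all autosomal protein-coding genes and the number of genes stands in brackets. Immediate early genes, p53 targets with cell cycle brakes, and Ras-MAPK genes stand highest, at 65.0%, 65.0% and 54.8%. The plasma protein, cytochrome P450 and olfactory receptor lists stand lowest.

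Immediate early genes encode transcription factors induced within minutes of growth factor signals. Brg1 lay at 19 of their 20 starts, and the 13 members were Myc, Jund, Egr3, Jun, Btg2, Fos, Klf4, Ier2, Srf, Fosl1, Egr2, Fosb and Maff. Myc, a driver of growth, had a WT H3K9me3 −log10 q of 3.90, Brg1 of 7.56, Arid1a of 4.70, Ctcf of 56.8 and Rad21 of 37.8, with no H3K27me3 in either genotype. Jund had H3K9me3 of 5.42, Brg1 of 7.21, Arid1a of 14.5 and Ctcf of 55.9. Egr3 and Egr2 were the 2 members of this list with H3K27me3, Egr3 at 6.21 in WT and 2.75 in KO cells and Egr2 at 15.2 and 15.9, and Egr3 had no Arid1a. Of these 13 members, 10 had Arid1a, 12 had Ctcf and 12 had Rad21, beside 73.2%, 70.7% and 85.1% of all members.

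Many of the p53 targets and cell cycle brakes halt division or start cell death after damage, whereas Mdm2 and Mdm4 of the list restrain p53. Members were Mdm2, Gadd45a, Sesn1, Cdkn1b, Sesn2, Ccng1, Zmat3, Cdkn2a, Rrm2b, Mdm4, Bbc3, Bax and Cdkn1a. Mdm2, the ubiquitin ligase that degrades p53, had Brg1 of 8.997, Arid1a of 5.44 and Ctcf of 76.3. Gadd45a, a stress sensor, had Brg1 of 7.45, Ctcf of 13.5 and Rad21 of 11.5. Of the 17 starts of this list with Brg1, 13 were members and 4 had no H3K9me3 in either genotype.

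Genes of the Ras-MAPK pathway, through which H-Ras signals, had Brg1 at 28 of 31 starts. Dusp6, a phosphatase that switches off ERK, had Brg1 of 9.78, Rad21 of 14.2 and H3K9me3 of 2.41. Nras, a Ras GTPase, had Brg1 of 7.88, Arid1a of 8.34 and H3K9me3 of 3.43. Ier3, an early response gene, had Brg1 of 7.56 and Arid1a of 10.5. The other members included Dusp7, Spred2, Grb2, Spry4, Mapk3, Etv1, Dusp2, Nf1, Spred1, Dusp1, Dusp4 and Etv5, and Brg1 in the list ran from 1.89 to 9.78.

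Among the genes of epithelial-mesenchymal transition, 12 of 34 (35.3%, interval 21.5 to 52.1) were members, and Brg1 lay at 21 of the 34. All 12 members had Rad21, which lay at 85.1% of all members. Fn1, which encodes fibronectin, had Brg1 of 9.27, Arid1a of 6.44 and Rad21 of 9.66. Vim, the mesenchymal intermediate filament vimentin, had Brg1 of 8.10, Ctcf of 43.7 and Rad21 of 29.0. Cdh2, which encodes N-cadherin, had Brg1 of 5.96, Arid1a of 7.03 and Rad21 of 18.7. The remaining members were Smad3, Tgfbr1, Zeb1, Esrp2, Tgfb1, Mmp2, Twist1, Smad2 and Tgfbr2. Among stellate cell and fibroblast markers, 5 of 17 were members and 9 had Brg1. Col1a1, which encodes a chain of collagen, had Brg1 of 7.04, Ctcf of 129.0 and Rad21 of 74.3, and Acta2, smooth muscle actin, had Brg1 of 5.19.

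The genes of the chromatin machinery itself were partly members. Of 28 genes in the SWI/SNF list, 20 had Brg1 and 12 were members (42.9%, interval 26.5 to 60.9). These were Arid1b, Smarcc2, Smarca5, Bicra, Smarca4, Bcl7c, Smarcb1, Arid1a, Smarcc1, Bicral, Smarcd3 and Brd9. Smarca5 encodes an ATPase of ISWI complexes and is not a SWI/SNF subunit, although the list counts it. Smarcc2, a core subunit, had Brg1 of 5.50, Arid1a of 7.16 and Ctcf of 85.4. Of 26 genes of H3K9 methylation and its readers, 16 had Brg1 and 8 were members, of which Cbx5 and Cbx3, 2 heterochromatin proteins, had Brg1 of 7.88 and 5.96 and H3K9me3 of 2.94 and 2.03. Of 28 Polycomb genes, 16 had Brg1 and 5 were members (17.9%). Ezh2, the methyltransferase of H3K27, had Brg1 of 8.40 and H3K9me3 of 2.59. Of 16 genes of cohesin and Ctcf, 9 had Brg1 and 3 were members, and Pds5a, a cohesin regulator, had H3K9me3 of 6.10, Brg1 of 6.64, Ctcf of 79.7 and Rad21 of 34.9.

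Several housekeeping lists lay above the share over all starts. Members made up 43.9% of RNA polymerase II and Mediator genes, 46.9% of ubiquitin E2 genes, 39.7% of DNA replication and repair genes and 39.2% of cytoplasmic ribosomal protein genes, and Brg1 lay at 73.2%, 78.1%, 77.9% and 82.3% of these starts. Of their Brg1 starts, 60.0%, 60.0%, 50.9% and 47.7% were members, against 49.4% of all Brg1 starts. Polr2a, the largest subunit of RNA polymerase II, had Brg1 of 15.2, Arid1a of 14.8 and H3K9me3 of 3.25. Members made up 28.4% of the respiratory chain, 28.2% of mitochondrial ribosomal proteins, 27.7% of the proteasome, 29.0% of chaperones and 27.5% of cyclins with their kinases. The interval of each of these 5 shares included the 20.5% over all starts, as for the respiratory chain, with 19.7 to 39.0. In these 5 lists Brg1 lay at 61.5% to 65.4% of the starts, and 43.4% to 45.8% of the Brg1 starts were members, under the 49.4% of all Brg1 starts.

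In some lists Brg1 was frequent and members were few. Of 62 replication-dependent histone genes, 57 had Brg1 and 10 were members, while 46 had Brg1 without H3K9me3 in either genotype. Of these 62 genes, 54 lie on chromosome 13, which held few members of any kind. Histone copies are nearly identical in sequence, and how reads that fit several copies were handled is not given in the sources used here, so their summits are uncertain. Of 21 tRNA synthetase starts with Brg1, 6 were members, and of 19 kinesin starts with Brg1, 5 were.

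The developmental list held Hox and other homeobox genes and also T-box genes such as Tbx6. Its genes were members in 27 of 117 cases (23.1%), close to the share over all starts, although Brg1 lay at 33.3% of them. Of their 39 Brg1 starts, 27 were members (69.2%). Members were unevenly spread over the list, since 17 of its 39 Hox genes were members and most of the 27 were thus Hox genes. Among them were Hoxb2 and Hoxb7 with Brg1 of 7.56 and 6.87. Dlx1, a forebrain homeobox gene, had Brg1 of 6.60 and Arid1a of 7.52. WT H3K27me3 lay at 45.3% of the list and at 3 of its 27 members, beside 11.1% of all members.

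Zinc finger Zfp genes, many of which lie in H3K9me3-rich clusters, had 90 members of 385 (23.4%, interval 19.4 to 27.9), and Brg1 lay at 199 of them. Their Brg1 at members ran from 1.502 to 7.34. Among the Zfp members, Zfp983 had the highest WT H3K9me3, at 8.21, with Brg1 of 2.56 and Ctcf of 17.4.

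Hepatocyte markers, plasma protein genes and cytochrome P450 genes were nearly absent from the members, but hepatocyte transcription factors were not. Of 20 hepatocyte markers 1 was a member, of 58 plasma protein genes 2 and of 80 cytochrome P450 genes of families 1 to 4 also 2. Brg1 lay at 4, 10 and 5 of these starts, and WT H3K27me3 at 10, 20 and 20, or 50%, 34.5% and 25%, against 24.1% of all starts. Arg1, an enzyme of the urea cycle, was the marker that was a member, with Brg1 of 2.67 and H3K9me3 of 1.90. Of the 28 hepatocyte transcription factors, 6 were members (21.4%, near the 20.5% over all starts), and 11 had Brg1. These members included Gata6 with Brg1 of 6.87 and Nr1h4, the bile acid receptor, with 3.34. Of the lists for other cell types, 1 of 20 endothelial, 1 of 16 macrophage and 1 of 11 cholangiocyte markers were members, with Brg1 at 3, 2 and 2, besides the 5 of 17 stellate cell and fibroblast markers. ChIP-seq measures no expression.

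The members with the highest Brg1 included broadly expressed genes. Parp16, an enzyme of the endoplasmic reticulum, led with a Brg1 −log10 q of 25.8 and also had the highest Arid1a of the members, at 22.8, with Ctcf at 45.7 and H3K9me3 at 4.79, in spite of a CpG ratio of 0.238. Mrps18b with Ppp1r10 followed at 19.4, and then Eapp (17.0), Poldip3 (15.4), Tuba1b (15.3), Polr2a (15.2), Ftl1 (14.9), Sept11 (13.2) and Azin2 (12.97). Arid1a lay at all 10 of these starts, with values from 7.98 to 22.8, and at 89.0% of the members with Brg1 of 5 or more. H3K9me3 at them ran from 1.47 at Ftl1, the ferritin light chain, to 4.79 at Parp16. None of the 10 had H3K27me3 in either genotype.

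The members with the highest WT H3K9me3 were led by Gm13289 at 8.53, Tab2 at 8.42, Zfp983 at 8.21 and Hnrnpab at 8.04. Tab2, an adaptor of the TAK1 kinase, also had Arid1a of 10.6 and Rad21 of 13.5. Hnrnpab, an RNA-binding protein, had Arid1a of 7.70 and no Ctcf. Brg1 at the 10 starts ran from 1.98 at Csf2ra, a cytokine receptor, to 9.38 at Tnfaip6, a hyaluronan-binding protein. The nearest KO H3K9me3 summit lay 2004 bp away at Rbm22 and 33718 bp away at Spryd3, so that some of these starts were members by a narrow margin. Members were also divided by WT H3K9me3, a list of the rule, and 128 of them reached 5. The Arid1a share was 69.9% (67.3 to 72.3) under 2.5 and 78.9% (71.0 to 85.1) at 5 or more. These intervals overlapped. In the same classes the Rad21 share was 83.1% and 91.4%, and the Ctcf share 67.5% and 68.75%. The CpG island-like share was 73.8% and 67.2%.

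High Ctcf and high Rad21 came together at Arid3a, a DNA-binding protein, with 207.8 and 105.4. The highest Ctcf, 214.2 at Gm13290, went with Rad21 of 14.2, and Sh3glb1 had 203.6 and 40.4. Samd5 had 103.7 and 97.3, Gadd45b, a stress gene, 127.0 and 96.3, Lif, a cytokine, 120.2 and 94.6, and Pola2, a subunit of DNA polymerase alpha, 123.5 and 90.3. Arid3a and Lif had no Arid1a summit. Brg1 at these starts ran from 2.003 at Lif to 10.2 at Gadd45b.

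Of 10 genes singled out by the study, 4 were members, beside 20.5% of all starts. The study examined Arid1a, Brg1, Ctcf and Rad21 as proteins and tied the rest to compartment switching, and of the rest only Atg10 was a member. Arid1a itself, on chromosome 4 with its start at 133756769, had WT H3K9me3 of 3.63 at 1087 bp downstream, Brg1 of 4.21, Arid1a of 2.56, Ctcf of 4.51 and Rad21 of 3.19, and the nearest KO H3K9me3 summit lay at −66573 bp. Smarca4, the gene of Brg1, had H3K9me3 of 5.09, Brg1 of 5.20 and Arid1a of 4.22, with no Ctcf or Rad21. Ctcf had H3K9me3 of 4.03, Brg1 of 4.68, Ctcf of 65.0 and Rad21 of 23.4. Atg10, an autophagy enzyme, had H3K9me3 of 2.64, Brg1 of 4.49, Arid1a of 3.99 and Rad21 of 5.47. Of the others, Rad21 had Brg1 of 1.47 and no H3K9me3 in either genotype, Rnf125 had H3K9me3 in both genotypes and no Brg1, Pmp22 and Six2 had KO-only H3K9me3 and no Brg1, and Gsc and Cdh5 had no H3K9me3 in either genotype and no Brg1 within 2 kb.

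Members were unevenly spread over the autosomes. They made up 29.2% of the genes of chromosome 19, 28.7% of chromosome 11 and 28.7% of chromosome 5, but 4.77% of chromosome 13 and 3.33% of chromosome 14. On chromosomes 13 and 14 together, 70 of 1740 starts were members, whereas the CpG island-like share was 43.0% there and 46.0% on the other autosomes. Summits of the 8 lists were sparse on both chromosomes. Brg1 had 7.89 summits per Mb on chromosome 13 and 4.95 on chromosome 14, against 17.2 to 67.3 on the other autosomes, and KO H3K9me3 had 24.4 and 22.0 against 30.8 to 92.6. The copy number of the chromosomes in this line was not tested.

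The difference between the members and the Brg1 starts without H3K9me3 was then taken within each autosome. For Arid1a it was positive on 17 of 19 autosomes, with a median of 12.3 points, and negative on chromosome 13 (32.5% against 48.6%) and chromosome 14 (16.7% against 37.0%), which had 40 and 30 members. For Rad21 it was positive on 17 of 19, with a median of 12.8 points, the exceptions being chromosomes 12 and 14. For Ctcf it was positive on 18 of 19, with a median of 8.76 points, and −1.17 on chromosome 16. The CpG island-like share was larger at the members on 15 of 19 autosomes. For H3K27me3 the difference was positive on 11 of 19.

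**Figure D5:**
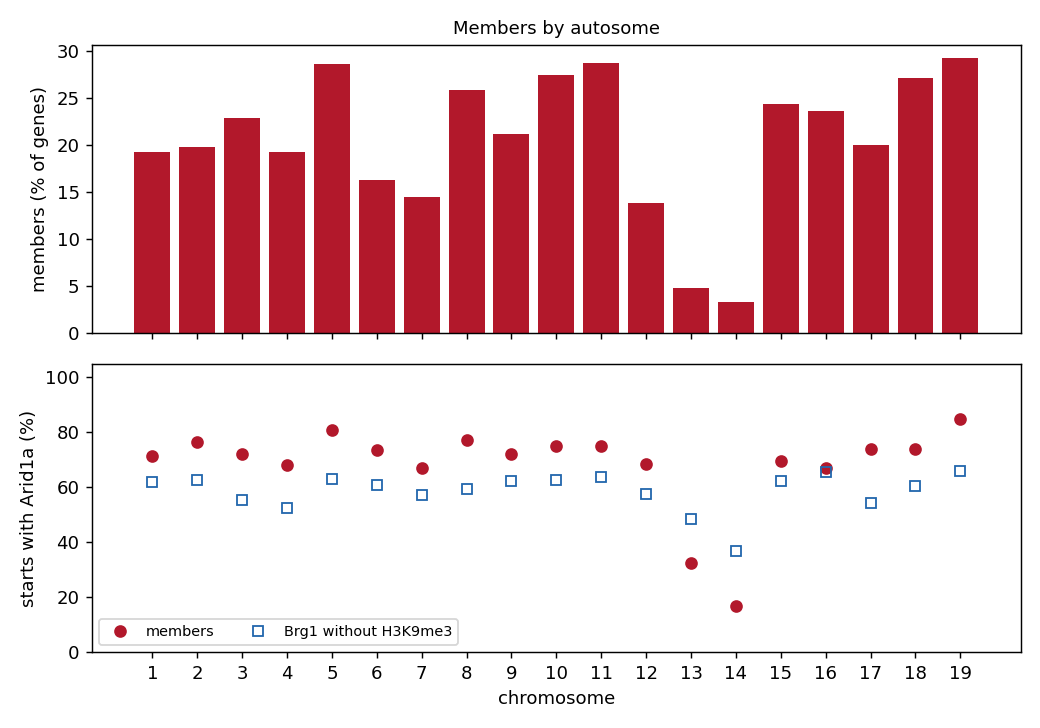
Members as a share of the genes of each autosome (%, upper bars) and the share with Arid1a (%, lower points) among the members (filled) and the Brg1 starts without H3K9me3 (open squares). Chromosomes 13 and 14 hold 4.77% and 3.33% members, and on these 2 the filled points lie below the squares.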

How the data were processed

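ChIP-seq peak lists of 8 of 10 samples were used, and the 2 inputs entered only through peak calling. Per the study's methods, the authors aligned reads to mm10 with bowtie2, filtered them with SAMtools and Picard and called peaks with MACS2 against input. Versions and pooling were not given in the sources used here. Each deposited list gave 1-bp summits with a −log10 q-value, a unit read from the values because the lists have no header and none lies under 1.30, the −log10 of 0.05. Read depth, on which the number of summits depends, is unknown.

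Starts were the outermost annotated starts of autosomal protein-coding genes in GENCODE M21 (GRCm38), and 0 summits lay beyond a chromosome end. Sequence was read from RefSeq GRCm38. A summit within 2 kb counted as present, and the highest −log10 q was kept. Counting used Python 3.11.15, pandas 2.3.3 and scipy 1.17.1 and was tested on simulated lists. The members and the gene lists were chosen with earlier results of these data known. Named genes were the 10 members highest in Brg1 and in WT H3K9me3, the 5 highest in H3K27me3, Ctcf and Rad21, up to 3 per gene list by Brg1, 10 genes of the study and the 3 nearest to each side of the 2 kb limit. Symbols used by several genes (27) were kept apart by gene identifier. Other windows, thresholds and starts were tried. Some gene names and sequences are not reported here.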

Additional observations from a re-analysis of the deposited data

How the results depend on the processing

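With 1 library per group no value has a replicate check, and no paired analysis was possible because each group has a single library. Of 89 recomputed values, 39 stayed within the interval of the reported value (counts: within 1.5 times) and 50 moved. The shares with Arid1a, Ctcf, Rad21, WT H3K27me3 and a CpG island-like start became 69.4%, 59.4%, 78.8%, 5.26% and 79.04% with windows of 1 kb, 77.2%, 80.7%, 88.1%, 19.9% and 68.4% with 5 kb, and 76.9%, 78.6%, 88.5%, 15.01% and 70.0% with any annotated transcript start. With summits of −log10 q of at least 3 in every list, there were 1446 members, with 56.6%, 63.0%, 71.5%, 4.98% and 77.2%. With that limit on WT H3K9me3 and Brg1 alone, there were 1269, with 82.5%, 77.2%, 89.1%, 9.61% and 77.1%. Where no KO H3K9me3 was allowed within 10 kb, there were 2293 members, with Arid1a at 74.8%. Genes with no other start within 4 kb gave 71.1% for Arid1a and 12.4% for H3K27me3, and equal weight for the 19 autosomes gave 68.2%, 68.5% and 81.5% for Arid1a, Ctcf and Rad21. An equal number of WT and KO H3K9me3 summits moved none of the values, nor did leaving out chromosomes 13 and 14, which was chosen after seeing the data.

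The excess of the members over the Brg1 starts without H3K9me3, in percentage points, was recomputed in the same settings, also chosen after seeing the data, and stayed positive in each. For Arid1a it was 17.3 with 5 kb, 17.8 without KO H3K9me3 within 10 kb, 10.1 and 9.27 under the first and second limit on −log10 q, and 9.59 with equal weight for the autosomes. For Ctcf it was 10.1 with 1 kb, 16.3 with 5 kb, 16.5 with any transcript start, 9.92 with the limit in every list and 9.78 with equal weight. For Rad21 it was 11.9, 18.2, 17.2, 9.31 and 11.2 in these settings and 8.47 with the limit on WT H3K9me3 and Brg1. The causes were not tested.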

Other observations

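The mirror of the members, starts with WT Brg1 whose H3K9me3 was in KO cells only, comprised 445 genes. KO-only H3K9me3 was the rarer kind also at starts without Brg1, with 984 starts against 2577 with WT-only H3K9me3. The following shares are of the 445 mirror starts. Arid1a lay at 59.3% of them (54.7 to 63.8), Rad21 at 71.9% and Ctcf at 56.9%, which is 13.8, 13.2 and 13.9 points under the members. The CpG island-like share was 67.0%, and WT H3K27me3 lay at 15.1%. These shares were near those of the Brg1 starts without H3K9me3, at 59.0% for Arid1a, 70.1% for Rad21 and 58.3% for Ctcf.

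The KO H3K9me3 summits at the 838 Brg1 starts with H3K9me3 in both genotypes were placed differently from those of the WT cells. The nearest KO summit lay a median of 929.0 bp from the start and the nearest WT summit 468.0 bp, and the distance to the nearest Brg1 summit was 685.0 bp for KO and 375.5 bp for WT H3K9me3. The Brg1 list is of WT cells in both cases, and the 2 H3K9me3 lists come from 1 library each.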
